A study of Homo sapiens with 2 samples.

Results

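The 9 genes described here, MDM2, SFN, GADD45A, GADD45B, BTG1, BTG2, ZMAT3, TP53INP1 and PLK2, are growth arrest and stress genes known as targets of the transcription factor p53. They were chosen by name for that role and located by NCBI gene ID, so 9 of the 27685 gene IDs of the deposited tables were taken, each with 1 row per table. The cells were H1299, an established human non-small cell lung cancer line that is known to be p53-deficient. One library came from cells given 5 mM metformin, a biguanide drug that inhibits complex I of the mitochondrial respiratory chain, and 1 library from untreated cells (control). Both were grown in the same serum-containing medium, and how long the drug was applied is not stated in the labels. With 1 library per group there is no replicate check and no test: a difference between the libraries cannot be told apart from one between any 2 cultures.

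In cells with p53, DNA damage and other stress stabilise the protein, which binds pairs of adjacent half-sites in DNA and raises the transcription of genes that halt the cell cycle, repair DNA or start cell death. MDM2 is a ubiquitin ligase that marks p53 for degradation, so it is both a target and a brake of the pathway. The other genes act in several ways, among them on the kinase CDK1 that starts mitosis, on mRNA decay, on stress kinases, and on autophagy. Many of them are also induced without p53, through ATF4, AP-1, NF-kB or FOXO factors.

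Levels were read in TPM, a length-corrected transcript abundance relative to all other transcripts of the library. The metformin library held an estimated 31.7 M read pairs and the control library 28.7 M. Of 14078 genes with 1 TPM or more in at least 1 library, called measured, 213 stood at least 2-fold higher in metformin and 175 at least 2-fold lower, counted as a difference of log2(TPM + 1) values. VIM, a mesenchymal filament gene, was listed at 4960 TPM in metformin and 4380 in control. CDH2, the other mesenchymal marker, went the other way, at 19.1 TPM in metformin and 22.9 in control. The epithelial keratin genes KRT8 and KRT18 were at 521 and 954 TPM in metformin and at 269 and 553 TPM in control. The other epithelial markers, CDH1 and EPCAM, stayed below 1 TPM in each library, as did the lung genes NKX2-1, SFTPB, SFTPC and SCGB1A1. The leukocyte, endothelial and fibroblast markers PTPRC, CD3E, PECAM1, VWF, COL1A1, COL1A2 and DCN also stayed below 1 TPM, while CD68, a lysosomal gene listed as a leukocyte marker, was at 115 TPM in metformin and 148 in control. In bulk RNA, fewer cells with a transcript and less of it per cell cannot be told apart.

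The p53 relatives that can bind the same half-sites were read first. TP63 was at 0.0207 TPM in metformin and 0.0156 in control, so it was near 0 in each library. TP73 was at 2.89 TPM in metformin and 4.61 in control, a ratio of 0.627 (95% counting interval 0.522 to 0.752). All counting intervals given here cover the sampling of read pairs only, not the variation between cultures.

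Upstream windows of MDM2, SFN and PLK2 are printed because each holds a motif named for p53 or AP-1. Each is the 250 bases before a RefSeq transcription start, 5′ to 3′ on the gene's strand, placed on hg19 by an exact and single match. The inner promoter of MDM2, known as the p53-responsive one, lies at chr12:69202547-69202796 on the plus strand, and its start at 69202797 lies 845 bases after the start of the deposited gene. Its capitals mark a p53 site of 2 adjacent half-sites with at most 1 mismatch each.
MDM2: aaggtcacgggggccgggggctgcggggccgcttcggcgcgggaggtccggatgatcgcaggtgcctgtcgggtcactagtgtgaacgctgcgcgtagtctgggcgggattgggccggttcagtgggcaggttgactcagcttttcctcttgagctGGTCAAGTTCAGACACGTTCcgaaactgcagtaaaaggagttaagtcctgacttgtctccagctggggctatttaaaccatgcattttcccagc
The SFN window lies at chr1:27189390-27189639 on the plus strand, and its capitals mark a match to TGANTCA, the AP-1 heptamer.
SFN: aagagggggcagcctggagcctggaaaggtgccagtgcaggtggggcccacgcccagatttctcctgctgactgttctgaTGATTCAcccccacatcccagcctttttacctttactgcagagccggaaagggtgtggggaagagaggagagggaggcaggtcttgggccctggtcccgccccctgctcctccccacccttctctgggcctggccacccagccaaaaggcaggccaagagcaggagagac
The PLK2 window lies at chr5:57755914-57756163 on the minus strand, and its capitals mark an exact p53 half-site.
PLK2: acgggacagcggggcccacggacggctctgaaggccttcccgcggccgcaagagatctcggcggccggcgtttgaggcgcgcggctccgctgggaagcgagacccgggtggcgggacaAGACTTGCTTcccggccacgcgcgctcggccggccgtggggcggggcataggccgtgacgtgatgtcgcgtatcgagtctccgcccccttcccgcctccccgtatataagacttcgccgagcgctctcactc

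RefSeq gave 11 such windows for 7 of the genes, and none was used for GADD45A and TP53INP1. The p53 site with 2 half-sites was found in 119 of all 35116 RefSeq windows (0.339%). Among the 11 windows of these 7 genes it was only in the 2 overlapping windows of the inner MDM2 promoter. The search for it, with its allowance for mismatches, was chosen after the MDM2 window had been read. No sequence of GADD45A or TP53INP1, and none outside the 250 bases of a window, was searched. An exact half-site was in 5.57% of all windows and, among these genes, in PLK2. TGANTCA was in 6.57% of all windows, and here in SFN and in the inner MDM2 promoter, where it spans positions -118 to -112 relative to the start and the p53 site spans -94 to -75. Neither the cAMP response element TGACGTCA (1.65% of all windows) nor TGATGNAA, the core of the element read by ATF4 with C/EBP partners (3.14%), was in any of the 11. The CCAAT box was in windows of BTG1, BTG2, GADD45B, MDM2 and ZMAT3 (32% of all windows), and TATAAA in those of BTG1 and GADD45B (10.7%). All motifs were read on both strands, and a match is a string of letters, not a bound site.

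Of the 9 genes, 7 were higher in metformin than in control and 2 were lower, against 40.3% of measured genes higher. Over all 9 the median log2 difference, taken as metformin minus control with 1 added to each TPM, was 0.41, beside -0.08 over all measured genes. In this measure 1 of the 9, SFN, was higher by 2-fold or more, beside 1.51% of measured genes, and none was lower by 2-fold, beside 1.24%. After the libraries were centred on the median of well expressed genes, a shift of -0.09, 2 of the 9 were higher by 2-fold, beside 1.92% of measured genes, and none was lower, beside 0.81%. The same centring moved the share of higher genes among all called genes to 70.3%, from 54.9% as deposited. At 1.5-fold, 3 of the 9 were higher (SFN, GADD45A and PLK2), beside 5.4% of measured genes, and none was lower, beside 7.03%. The genes at 1 TPM or more in control numbered 8; SFN counted as measured through the metformin library alone.

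**Figure D1:**
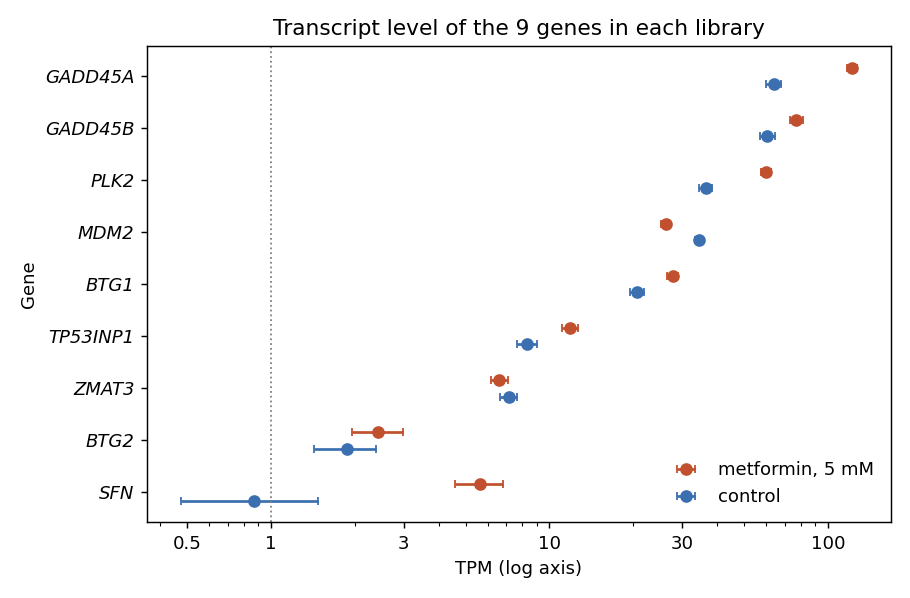
Levels of the 9 genes in TPM (log axis) in the metformin and control libraries, 1 library each, ordered by the control level, with 95% counting intervals as bars and a dotted line at 1 TPM. GADD45A has the highest level in each library, at 122 TPM in metformin and 63.9 TPM in control, and the metformin point of SFN lies far to the right of its control point.

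MDM2, the p53 ubiquitin ligase, was the gene with the lowest difference of the set. It was listed at 26.2 TPM in metformin and 34.5 TPM in control, a ratio of 0.759 (95% counting interval 0.721 to 0.8). The value rested on an estimated 2702 read pairs in metformin and 3147 in control. The metformin library was thus the low one, and the counting intervals of the levels did not overlap (25.2 to 27.2 TPM against 33.3 to 35.7 TPM in control). Its difference of -0.38 stood at percentile 17.1 of all measured genes. MDM2 (NCBI gene 4193) lies on chromosome 12 from 69201952 to 69239324 on the plus strand of hg19. Its exons overlap those of CPM, a carboxypeptidase gene on the other strand, which was listed at 46.2 TPM in metformin and 78.6 TPM in control. The libraries were made with a stranded kit, but the labels do not say whether reads were assigned by strand, so the part of CPM reads in the MDM2 value was not tested.

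Genes that work with MDM2 on p53 had ratios between 0.666 and 0.946. MDM4, the MDM2 partner that binds and holds p53 inactive, was listed at 5.42 TPM in metformin and 5.73 TPM in control (ratio 0.946, interval 0.853 to 1.05). PPM1D, a phosphatase that removes activating phosphates from p53, was at 6.66 TPM in metformin and 10 TPM in control (0.666, 0.587 to 0.755). USP7, a protease that removes ubiquitin from MDM2 and p53, was at 62.4 and 74.8 TPM in metformin and control (0.835, 0.803 to 0.868). Of the 6 genes listed for the p53 family and its control, 5 were measured. All 5 lay below 0, with a median of -0.26 and none past 2-fold, though 2 of them lay above the median of all measured genes.

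SFN encodes 14-3-3 sigma, an epithelial 14-3-3 protein that holds CDK1 and cyclin B in the cytoplasm and so delays mitosis. It was listed at 5.62 TPM in metformin and 0.872 TPM in control, a ratio of 6.45. Metformin was the high library by far, but the control value rested on an estimated 13.9 read pairs, against 101 in metformin, and the interval of the ratio ran from 3.66 to 12.2. Its difference of 1.82 ranked 27th from the top of all measured genes. SFN (NCBI gene 2810) is a gene of 1 exon on chromosome 1, from 27189633 to 27190947 on the plus strand of hg19. At 62.8% its transcript had the highest GC content of the 9. Across all measured genes the median difference was -0.27 in the tenth with the lowest GC content and 0.09 in the tenth with the highest. Without the trend over GC content and length the difference of SFN was 1.64.

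SFN was a minor part of its family in each library. Summed over SFN and the 6 YWHA genes that encode the other 14-3-3 proteins, the level was 3450 TPM in metformin and 3620 TPM in control. SFN made up 0.163% of that sum in metformin and 0.0241% in control. The most abundant member, YWHAZ, was listed at 1370 TPM in metformin and 1420 in control. YWHAH, which encodes 14-3-3 eta, was listed at 239 TPM in metformin and 144 TPM in control (ratio 1.66, interval 1.59 to 1.73).

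GADD45A and GADD45B encode small stress proteins that bind PCNA and CDK1 and activate MAP3K4, a kinase upstream of p38 and JNK. GADD45A was listed at 122 TPM in metformin and 63.9 TPM in control, a ratio of 1.91 (1.77 to 2.06) on an estimated 2270 and 1052 read pairs. Its metformin library was the high one, without overlap of the counting intervals, and its difference of 0.92 stood at percentile 98.1 of all measured genes. GADD45B was listed at 77.1 TPM in metformin and 60.7 TPM in control, a ratio of 1.27 (1.17 to 1.38). The difference of GADD45B, 0.34, was smaller, at percentile 87.3. GADD45A (NCBI gene 1647) lies on chromosome 1 from 68150860 to 68154021, and GADD45B (NCBI gene 4616) on chromosome 19 from 2476123 to 2478257, each with 4 exons on the plus strand of hg19.

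The summed level of the GADD45 family was 199 TPM in metformin and 125 TPM in control, and GADD45G, the third member, was listed at 0 in each. GADD45A made up 61.3% of the family in metformin and 51.3% in control. In control the counting intervals of the pair overlapped (60.1 to 67.9 TPM for GADD45A and 57 to 64.5 TPM for GADD45B). In metformin they did not, with GADD45A at 117 to 127 TPM and GADD45B at 73.2 to 81.2 TPM.

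**Figure D2:**
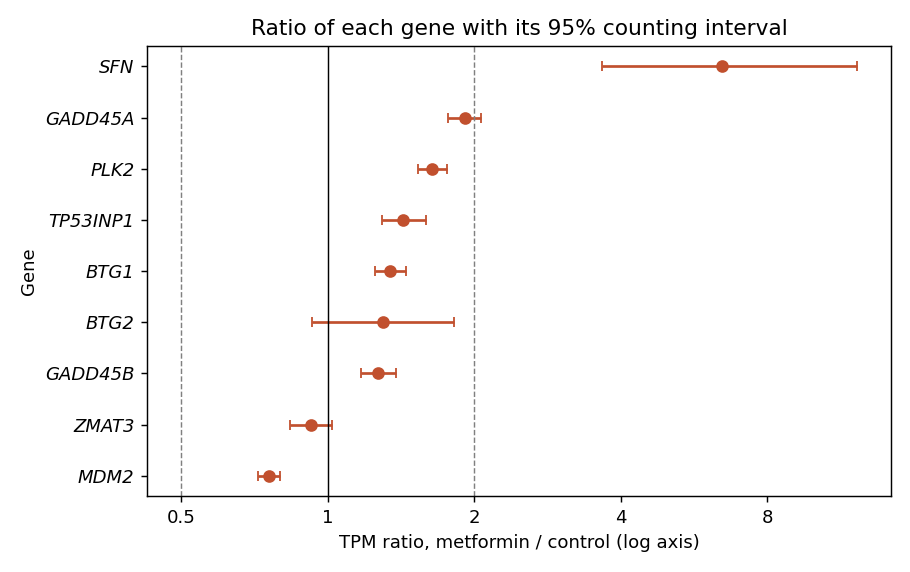
TPM ratio of metformin to control for each gene (log axis) with its 95% counting interval, 1 library per group; the solid line marks a ratio of 1 and the dashed lines 2-fold in either direction. The ratios run from 0.759 for MDM2 to 6.45 for SFN, and the intervals of BTG2 and ZMAT3 include 1.

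BTG1 and BTG2 encode antiproliferative proteins that tie the CCR4-NOT deadenylase to mRNAs and so speed their decay. BTG1 was listed at 27.7 TPM in metformin and 20.6 TPM in control, a ratio of 1.34 (1.25 to 1.45), with the metformin library high and no overlap of the intervals. BTG2, a classical p53 target, was scarce: it was listed at 2.42 TPM in metformin and 1.87 TPM in control. With an estimated 91 and 62 read pairs in metformin and control its ratio of 1.3 had an interval of 0.93 to 1.82, so a difference was not detectable at this depth. BTG1 (NCBI gene 694) lies on chromosome 12 from 92534054 to 92539673 on the minus strand. BTG2 (NCBI gene 7832) lies on chromosome 1 from 203274664 to 203278729 on the plus strand, and each gene has 2 exons. The noncoding genes BTG1-DT and LINC01619 share exon sequence with BTG1, and neither was above 0.216 TPM in a library.

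Within the BTG and TOB family of 6 genes the summed level was 175 TPM in metformin and 164 TPM in control. BTG3 was the most abundant, at 59.9 TPM in metformin and 61.8 in control. BTG1 held 15.8% of the sum in metformin and 12.6% in control, and BTG2 1.38% in metformin and 1.14% in control. TOB1 was at 44.4 TPM in metformin and 39 in control, and TOB2 at 39.8 TPM in metformin and 39.1 in control.

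PLK2 is a polo-like kinase of early G1 and of centriole duplication, and is known as an immediate early and stress-induced gene. It was listed at 59.9 TPM in metformin and 36.5 TPM in control, a ratio of 1.64 (1.53 to 1.76) on an estimated 2299 and 1237 read pairs. Metformin was the high library, without overlap of the intervals, and the difference of 0.70 stood at percentile 96.4. PLK2 (NCBI gene 10769) has 14 exons on chromosome 5, from 57749810 to 57755966 on the minus strand of hg19.

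The polo-like kinases differed in direction. PLK1, the mitotic kinase of the family, was listed at 105 TPM in metformin and 202 TPM in control, a ratio of 0.52 (0.497 to 0.544). PLK4, the main kinase of centriole duplication, was at 20.6 and 38.6 TPM in metformin and control (0.532, 0.493 to 0.574). PLK3 was at 6.33 and 5.64 TPM in metformin and control. The summed level of the 4 was 192 TPM in metformin and 283 TPM in control, and PLK2 made up 31.2% of it in metformin and 12.9% in control.

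**Figure D3:**
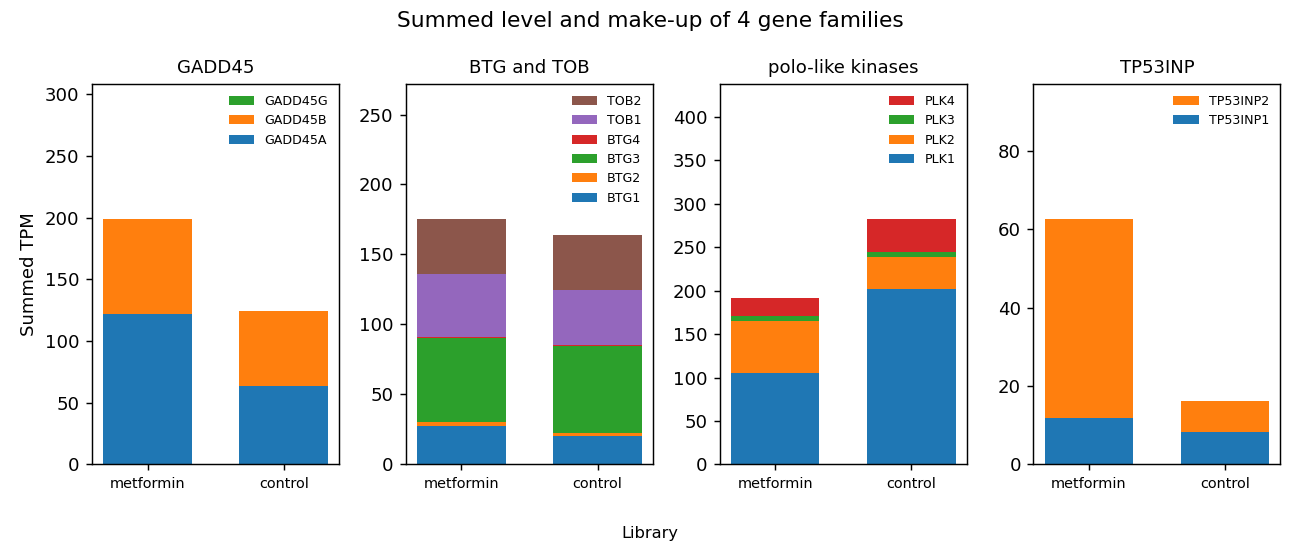
Summed TPM (linear axis from 0) of 4 families that hold members of the set, with the metformin bar on the left and the control bar on the right of each panel, 1 library each, and colours for the genes. The GADD45 sum is 199 TPM in metformin and 125 in control, while the polo-like kinase sum is 192 TPM in metformin and 283 in control with a larger PLK2 share in metformin.

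TP53INP1 encodes a nuclear stress protein that promotes p53 phosphorylation and also takes part in autophagy. It was listed at 11.9 TPM in metformin and 8.32 TPM in control, a ratio of 1.43 (1.29 to 1.59), on an estimated 918 and 568 read pairs. Metformin was the high library, without overlap of the intervals, and the difference of 0.47 stood at percentile 91.8. TP53INP1 (NCBI gene 94241) lies on chromosome 8 from 95938200 to 95961615 on the minus strand and overlaps exons of NDUFAF6 on the other strand. NDUFAF6, a complex I assembly gene, was listed at 14.3 TPM in metformin and 18.7 TPM in control, so it went the other way. The paralog TP53INP2, an autophagy gene, was listed at 50.8 TPM in metformin and 7.89 TPM in control, a ratio of 6.44 (5.79 to 7.17). TP53INP1 therefore made up 19% of the pair's sum in metformin and 51.3% in control.

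ZMAT3, also called Wig-1, encodes a zinc finger protein that binds RNA and is a p53 target in many cell types. It was listed at 6.61 TPM in metformin and 7.15 TPM in control, a ratio of 0.925 (0.837 to 1.02). The counting intervals of the 2 levels overlapped, and its difference of -0.10 stood at percentile 47.8 of all measured genes. ZMAT3 (NCBI gene 64393) lies on chromosome 3 from 178735011 to 178789656 on the minus strand. Its transcript had the lowest GC content of the 9, at 38.2%, and without the trend over GC content and length the difference was 0.03. Other ZMAT genes gave no common picture: ZMAT1 was at 1.12 TPM in metformin and 7.21 in control, and ZMAT2 at 134 TPM in metformin and 128 in control.

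The order of the levels differed between the libraries. In metformin it ran from GADD45A over GADD45B, PLK2, BTG1, MDM2, TP53INP1, ZMAT3 and SFN to BTG2. The counting intervals of neighbours overlapped there for BTG1 with MDM2 and for ZMAT3 with SFN. In control the order was GADD45A, GADD45B, PLK2, MDM2, BTG1, TP53INP1, ZMAT3, BTG2 and SFN, and the intervals overlapped for GADD45A with GADD45B, PLK2 with MDM2, TP53INP1 with ZMAT3 and BTG2 with SFN. The summed level of the 9 was 339 TPM in metformin and 234 TPM in control.

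A list of 40 other known p53 targets was set beside the 9, to see whether p53 target genes at large lay to one side. Of the 40, 33 were measured, with 16 above 0, 17 below and a median of -0.01, and 18 of the 33 lay above the median of all measured genes. SESN2, a stress-induced inhibitor of mTORC1, passed 2-fold, at 54.7 TPM in metformin and 26.8 TPM in control (ratio 2.04, interval 1.9 to 2.19). GDF15, a secreted stress cytokine, was at 8.39 and 4.29 TPM in metformin and control (1.96, 1.44 to 2.68). CDKN1A, which encodes the CDK inhibitor p21 and is a name added after its values were seen, was at 107 TPM in metformin and 60.6 in control. At the low end stood TRIAP1, an apoptosis inhibitor (0.655, 0.585 to 0.733), APAF1, the apoptosome scaffold (0.671, 0.617 to 0.729), and PPM1D, named above. The targets were thus split, and neither their median nor that of the 9 was tested.

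**Figure D4:**
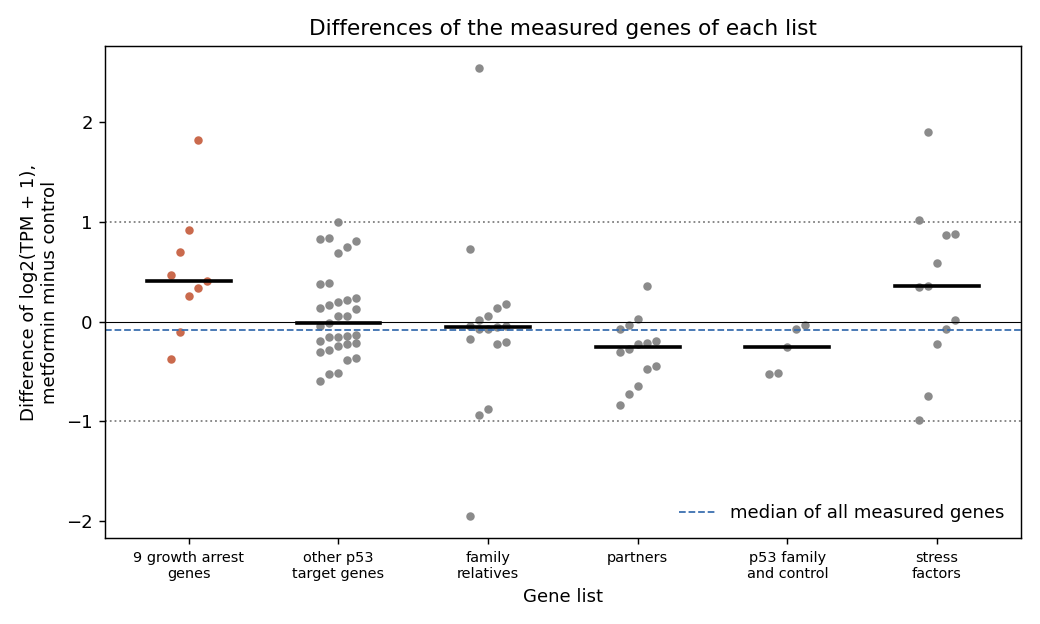
Difference of log2(TPM + 1), metformin minus control, for each measured gene of 6 lists (points) with the list median (bar), the median of all measured genes (dashed, -0.08) and 2-fold in either direction (dotted). The 9 growth arrest genes have a median of 0.41, the other p53 targets -0.01, the family relatives -0.05 and the partners -0.26.

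Among the 19 family relatives of the set, 17 were measured, 6 of them above 0 and 11 below, with a median of -0.05, and 11 lay above the median of all measured genes. TP53INP2 was higher and ZMAT1 lower by 2-fold or more. Of 15 genes whose proteins the 9 act through, 14 were measured as transcripts, 2 above 0 and 12 below. Their median was -0.26 and none was past 2-fold, and 4 lay above the median of all measured genes. CDK1 was listed at 101 TPM in metformin and 181 TPM in control (ratio 0.558), CCNB1, its cyclin, at 240 and 399 TPM in metformin and control (0.601), and PCNA, the replication clamp, at 150 and 235 TPM in metformin and control (0.638). CDC25B, a phosphatase that activates CDK1, stood at the other end, at 138 TPM in metformin and 107 in control (1.28). CNOT7, a catalytic deadenylase subunit bound by BTG proteins and likewise a later addition, was at 85.4 TPM in metformin and 117 in control (0.73). The other listed CCR4-NOT genes, also added later, had ratios nearer to 1, at 0.849 for CNOT8 and 0.951 for CNOT1.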

How the data were processed

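RNA of H1299 cells with 5 mM metformin and without it was sequenced as 1 library each. Per the labels' protocols, libraries came from a stranded mRNA kit, and Bowtie2 is named for the alignment to hg19. Trimmomatic 0.38 and HISAT2 are named per the submitters' notes on processing. Which of Bowtie2 and HISAT2 made the deposited alignments, the abundance program and the use of strand are not stated there. The authors deposited TPM, which summed to 1000000 per library, FPKM, and coverage as mean read depth, per the file headers.

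Symbols came from a RefSeq table by NCBI gene ID (27559 IDs matched, 126 did not). Rows of an ID were summed. Differences are of log2(TPM + 1), metformin minus control, with a pseudocount of 1; ratios are of plain TPM. Depth was taken from the largest ratio of coverage to FPKM, 6.4 Gb in metformin and 5.8 Gb in control, at 202 bases per pair, the total seen most often among short genes with few reads. Read pairs of a gene followed from its FPKM and its canonical transcript length in GENCODE 44. Summed over genes they came to 107% of the estimated total in each library, so the pairs of a gene are approximate. They gave exact (Clopper-Pearson) 95% intervals of ratios and exact Poisson intervals of levels, exact only for the estimated pairs. Duplicates from PCR can make the intervals too narrow. No test was run. The steps were tested on simulated data. Upstream windows came from RefSeq (GRCh38.p14). Named genes were all 9 and up to 3 at each end of each list, plus overlapping genes and relatives that show a family's make-up; some genes the rule took are left out of this text, and MDM4, PPM1D and PLK3 are in more than 1 list. The genes and lists were chosen with earlier results of these data known. Alternatives were other pseudocounts, FPKM, scalings, a GC and length correction, minimums and a 1.5-fold threshold. Python 3.11.15 was used.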

Additional observations from a re-analysis of the deposited data

How the results depend on the processing

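The count of the 9 genes higher by 2-fold was 1 as reported and 0 with a pseudocount of 5 TPM. It was 2 when centred on the median of genes at 10 TPM or more, 2 with trimmed mean scaling and 3 with a 1.5-fold threshold. With a pseudocount of 0.1, FPKM or the GC and length correction it was 1. It was also 1 without a minimum or with a minimum of 5 TPM, but neither of these minimums checks SFN. A gene passed a minimum through either library, and SFN passed 5 TPM only in metformin (5.62 TPM, against 0.872 in control). BTG2, at 2.42 and 1.87 TPM in metformin and control, was left out at that minimum. None of the genes was lower by the threshold under any of these settings. The difference of SFN ran from 0.86 to 2.56, that of GADD45A from 0.87 to 1.01 and that of MDM2 from -0.40 to -0.27. ZMAT3 changed sign once, at 0.03 without the GC and length trend; the other 8 kept theirs with FPKM, centring, trimmed means and that correction. The pseudocounts cannot change a sign, and taking only the highest row of an ID changed nothing, since each of the 9 has 1 row. Over all measured genes, 213 higher and 175 lower became 389 and 353 with a pseudocount of 0.1, 58 and 45 with 5, 113 and 67 with FPKM, 123 and 96 without the GC and length trend, 121 and 115 at a minimum of 5 TPM, 760 and 990 at 1.5-fold, 270 and 114 after centring, and 262 and 130 with trimmed means, which put 66.8% of calls on the higher side. The causes were not tested. No paired analysis was possible because each group has 1 library. Depth limits SFN and BTG2, the genes with the fewest read pairs.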

Other observations

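Factors known to act on genes of the set without p53 differed among themselves. Of 12 listed factors, all measured, 8 were above 0 and 4 below, beside 40.3% of measured genes above 0, and 9 lay above the median of all measured genes. The median of the list was 0.36, and 2 factors were higher by 2-fold or more, beside 1.51% of measured genes. Because the list was chosen with earlier results of these data known, these counts are a description only. JUN, an AP-1 subunit, was listed at 124 TPM in metformin and 32.5 TPM in control, a ratio of 3.82 (95% counting interval 3.6 to 4.06). ATF3, a stress factor of the ATF family, was at 17.5 TPM in metformin and 8.11 in control (2.15, 1.82 to 2.56). ZFP36L1, an mRNA decay protein that binds AU-rich elements, was at 216 TPM in metformin and 117 in control (1.85, 1.78 to 1.92). At the other end stood BRCA1, a DNA repair protein known to act on GADD45A and SFN, at 14.2 TPM in metformin and 29.3 in control (0.485, 0.454 to 0.518). EGR1, an immediate early factor, was at 18 TPM in metformin and 30.9 in control (0.582), and FOXO1 at 1.04 and 1.39 TPM in metformin and control (0.749, 0.552 to 1.01). Whether any of these factors acts on the 9 genes here was not tested.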
